A study of Macaca mulatta with 18 samples.

Results

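RORB, LHX2, CUX1, CUX2 and MEF2C encode transcription factors that are widely used to mark neurons of the upper cortical layers, or that act in those neurons. They were taken as a list of 5 genes by symbol, (RORB ENSMMUG00000012571, LHX2 ENSMMUG00000003671, CUX1 ENSMMUG00000021461, CUX2 ENSMMUG00000001909 and MEF2C ENSMMUG00000019836), and all 5 were among the 22345 genes of the RNA table and among the 13460 genes tested. The series profiled the fetal brain of wild-type rhesus macaques on embryonic day 84, in a study of cortical development, and holds 18 samples of RNA-seq, Hi-C, DNase-seq and CTCF ChIP-seq. RNA-seq gave 3 libraries from tissue labelled CP and 3 from tissue labelled GZ, and only these 6 libraries were used here. The labels do not spell out the abbreviations; in work on fetal cortex they usually stand for cortical plate, where young neurons settle, and germinal zone, where progenitors divide. No treatment or transgene was given for either group, and the labels do not say whether each library is a separate animal. The p-values therefore reflect only how much these libraries vary, and how much of that variation is technical is unknown. Values are log2 FPKM, a read density per length of transcript and per sequenced library, which the authors had normalized; the number of reads behind each value is unknown.

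Upper-layer neurons are born after deep-layer neurons and send most of their axons within the cortex or across the corpus callosum. CUX1 and CUX2 are paralogous cut-homeobox factors that shape dendrites and spines of upper-layer neurons, and CUX2 RNA is also found in intermediate progenitors and in some interneurons. RORB is a nuclear receptor gene used as a marker of the layer that receives thalamic input. LHX2, a LIM-homeobox gene, acts in cortical progenitors, where it helps set cortical identity, and stays on in upper-layer neurons. MEF2C is a MADS-box factor that responds to calcium signals and controls synapse number in excitatory neurons; it is also made in some interneurons, in microglia and in endothelium. No nucleotide or protein sequences were used here.

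The libraries were compared before the genes were examined. Median log2 values ran from 1.82 to 1.87 over the 6 libraries, and profile correlations were 0.971 to 0.987 within a tissue and 0.895 to 0.935 between tissues. The median log2 value over 9 Y-linked genes was 1.55 in CP replicate 1 and -0.13 in GZ replicate 1, whereas it was 3.73 and 3.75 in CP and GZ replicate 2 and -1.73 in both libraries numbered 3. The libraries numbered 1 thus stand apart from each other. The fit was also run without them, and values from it are given for MEF2C, LHX2, RORB, CUX2 and some other genes. Y-linked levels also differed between the libraries numbered 2 and 3 in both tissues, so these were not from a single animal. The spread within a tissue thus includes a difference of sex. All 11 cell cycle genes tested were higher in GZ, and 10 of 14 general neuron genes were higher in CP. Over all 13460 tested genes, 24.5% were called higher in GZ and 20.9% higher in CP (limma, adjusted p under 0.05). Counts of the lists below have the same background.

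The 5 factors did not behave alike. MEF2C, LHX2 and RORB were higher in CP, CUX2 was higher in GZ, and CUX1 was slightly higher in GZ without passing the test. MEF2C had by far the largest difference of the 5, about 8-fold, while the CUX genes differed by less than 1.4-fold. At an adjusted p under 0.05 in limma, 3 of the 5 genes were called higher in CP and 1 higher in GZ. Among all 13460 genes tested, 20.9% were called higher in CP, 24.5% higher in GZ and 45.4% in either direction, so a call by itself is common in these data. Library values of CP and GZ did not overlap for any of the 5 genes, against 56.4% of all tested genes. Without the libraries numbered 1, 1716 genes were called higher in CP and 1647 higher in GZ, in place of 2816 and 3297, and the 5 genes gave 3 higher in CP and 0 higher in GZ. With 3 libraries against 3 the exact two-sided permutation test cannot give a p below 0.1, and it gave 0.1 for each of the 5 genes.

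**Figure D1:**
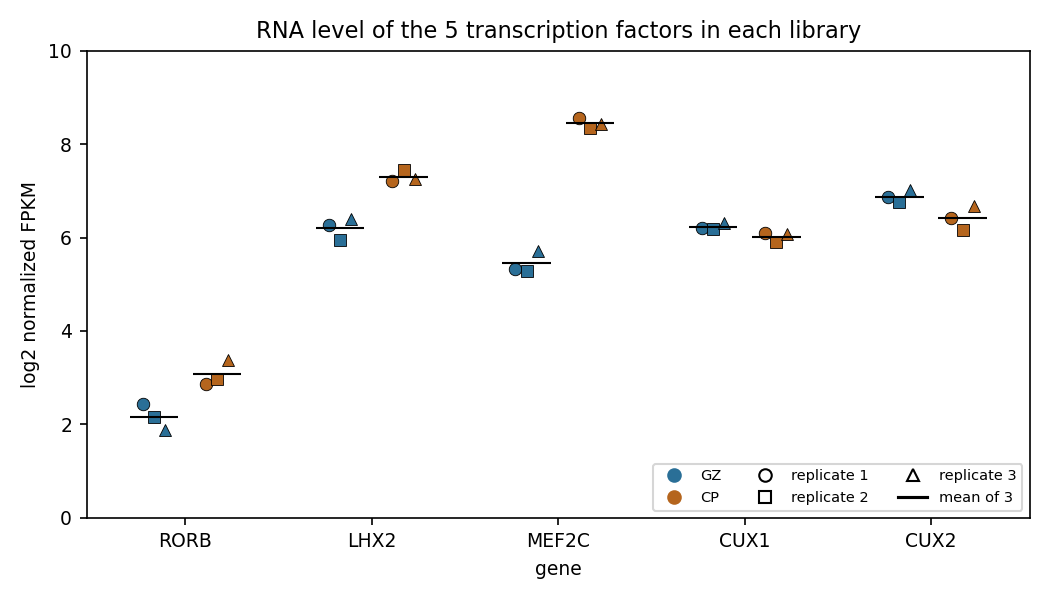
Log2 normalized FPKM (vertical axis) of RORB, LHX2, MEF2C, CUX1 and CUX2 in each of the 3 GZ libraries (blue) and 3 CP libraries (brown); symbols mark the replicate number and lines the mean of 3. MEF2C moves from 5.45 in GZ to 8.44 in CP, while CUX1 and CUX2 lie slightly lower in CP than in GZ.

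MEF2C was the most abundant of the 5 transcripts in CP. Its log2 level was 8.56, 8.34 and 8.43 in CP replicates 1 to 3, and 5.34, 5.29 and 5.71 in GZ replicates 1 to 3. Every CP library lay far above every GZ library, and GZ replicate 3 was the highest of the GZ libraries. The means were 8.44 ± 0.11 in CP and 5.45 ± 0.23 in GZ (SD, n = 3), or about 348 and 43.6 FPKM. The CP minus GZ difference was 3.00 ± 0.12 (SE), a 7.98-fold higher level in CP with a 95% interval of 6.58 to 9.67 (limma, adjusted p = 9.93e-06). Ranked by difference in favour of CP, MEF2C stood at place 33 of 13460. Its level lay at percentile 99.2 of the tested genes in CP and at percentile 82.0 in GZ. Without the libraries numbered 1 the difference was 2.88 (adjusted p = 0.0019).

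LHX2 was the next most abundant in CP. Its log2 level was 7.21, 7.44 and 7.26 in the CP replicates and 6.26, 5.96 and 6.40 in the GZ replicates. The lowest CP library was 7.21 and the highest GZ library 6.40, so the tissues were clearly apart. LHX2 was at 7.30 ± 0.12 in CP and 6.21 ± 0.23 in GZ (SD, n = 3). It was 2.14-fold higher in CP (95% interval 1.76 to 2.60, log2 difference 1.10 ± 0.12 SE, limma adjusted p = 4.33e-04). LHX2 RNA was nevertheless plentiful in GZ, at percentile 91.5 of the tested genes, and stood at percentile 97.2 in CP. Without the libraries numbered 1 the difference was 1.17 (adjusted p = 0.0082).

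RORB was the least abundant of the 5 in both tissues. Its log2 level was 2.87, 2.97 and 3.39 in the CP replicates and 2.44, 2.15 and 1.88 in the GZ replicates. The highest CP value and the lowest GZ value were both in libraries numbered 3. The means were 3.08 ± 0.27 in CP and 2.16 ± 0.28 in GZ (SD, n = 3), or 8.44 and 4.47 FPKM. RORB was 1.89-fold higher in CP (95% interval 1.37 to 2.60, log2 difference 0.92 ± 0.20 SE, limma adjusted p = 0.0076). Its level lay at percentile 33.9 of the tested genes in CP and 20.8 in GZ, well under the other 4 factors. Without the libraries numbered 1 the difference was 1.16 (adjusted p = 0.020).

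CUX2 ran the other way. Its log2 level was 6.42, 6.17 and 6.67 in the CP replicates and 6.87, 6.75 and 7.01 in the GZ replicates. The highest CP library (6.67) and the lowest GZ library (6.75) nearly met. CUX2 was at 6.42 ± 0.25 in CP and 6.88 ± 0.13 in GZ (SD, n = 3). It was 1.37-fold higher in GZ (95% interval 1.12 to 1.69, GZ minus CP log2 difference 0.46 ± 0.13 SE, limma adjusted p = 0.022). The call ended with CP replicate 1 left out (adjusted p = 0.056) and likewise with CP replicate 2 left out (adjusted p = 0.053). So did leaving out GZ replicate 1 (adjusted p = 0.058), GZ replicate 3 (adjusted p = 0.051) or both libraries numbered 1 (adjusted p = 0.120), with GZ higher each time. CUX2 was the most abundant of the 5 in GZ, at percentile 95.8 of the tested genes, and stood at percentile 93.3 in CP.

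CUX1 was nearly level between the tissues. Its log2 level was 6.09, 5.90 and 6.07 in the CP replicates and 6.21, 6.17 and 6.32 in the GZ replicates. The tissues did not overlap, but the highest CP and the lowest GZ library were close. The means were 6.02 ± 0.10 in CP and 6.24 ± 0.08 in GZ (SD, n = 3). The GZ minus CP difference was 0.21 ± 0.08 (SE), a 1.16-fold higher level in GZ with an unadjusted 95% interval of 1.02 to 1.32, and it did not pass the test (limma adjusted p = 0.064). The CUX1 locus also encodes CASP, a Golgi protein made from alternative transcripts, and a value per gene cannot tell those transcripts apart.

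**Figure D2:**
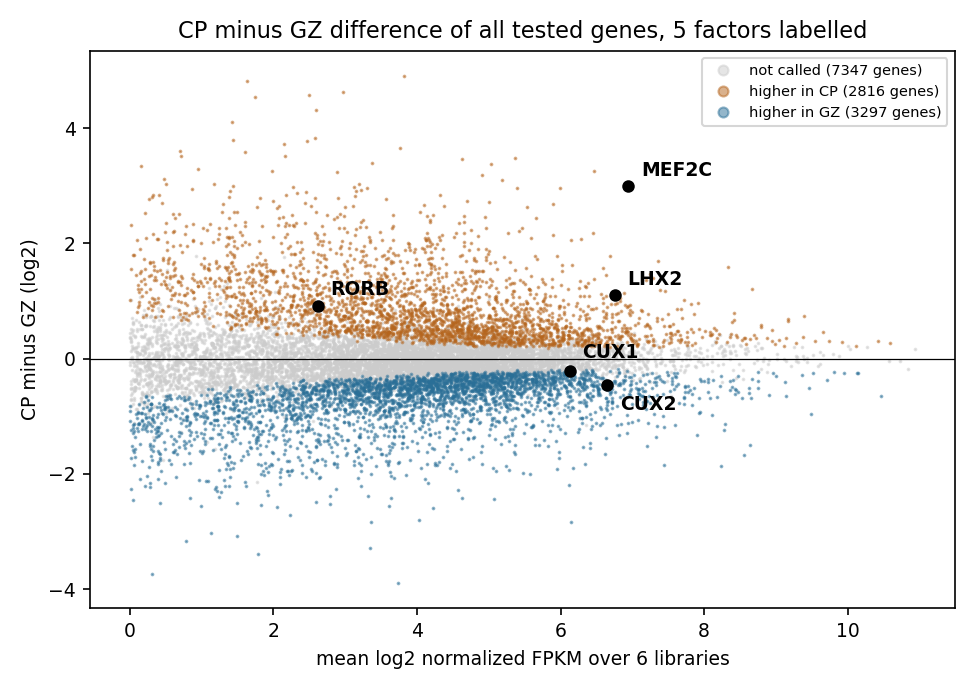
CP minus GZ log2 difference (vertical axis) against the mean log2 normalized FPKM over the 6 libraries (horizontal axis) for 13460 tested genes; colours mark genes called higher in CP (2816) or GZ (3297) at an adjusted p under 0.05. Among genes of similar level MEF2C stands near the upper edge, LHX2 and RORB lie within the brown cloud, and CUX1 sits at the border of the genes not called.

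The order of the levels differed between the tissues. From high to low it was MEF2C, LHX2, CUX2, CUX1 and RORB in CP, where no neighbours overlapped in their library values. In GZ it was CUX2, CUX1, LHX2, MEF2C and RORB. CUX1 and LHX2 overlapped there, with means of 6.24 and 6.21 on the log2 scale, and the other neighbours did not. MEF2C thus stood at place 1 in CP and place 4 in GZ, while RORB was last in both. These levels are per length of transcript, on the log2 scale.

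The paralogs CUX1 and CUX2 were set against each other within each library. CUX2 exceeded CUX1 in all 6 libraries, by 0.33, 0.27 and 0.59 on the log2 scale in CP replicates 1 to 3 and by 0.66, 0.58 and 0.69 in GZ replicates 1 to 3. On the linear scale the CUX2 to CUX1 ratio averaged 1.32 ± 0.16 over the CP libraries and 1.56 ± 0.06 over the GZ libraries (SD, n = 3). CP replicate 3 overlapped the GZ range. The difference of CUX2 minus CUX1 between the tissues was -0.24 (CP minus GZ) (exact two-sided permutation test, p = 0.2). With 0.1 as the smallest p possible, this test cannot tell whether the paralogs differed. Without CP replicate 3 the difference was -0.34. That was the only CP library within the GZ range, so leaving it out ends the overlap by construction.

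MEF2C was also set against its relatives MEF2A and MEF2D, which share its DNA-binding domain. MEF2A was 1.36-fold higher in CP (log2 levels 5.54 ± 0.05 and 5.10 ± 0.06, SD, n = 3, limma adjusted p = 0.0025). MEF2D was at 4.06 ± 0.19 in CP and 4.31 ± 0.05 in GZ (adjusted p = 0.106), and was called higher in GZ without CP replicate 3 (adjusted p = 0.043). Of the summed FPKM of MEF2A, MEF2C and MEF2D, MEF2C made up 85.9%, 84.3% and 83.6% in the CP replicates and 43.0%, 42.3% and 48.6% in the GZ replicates. The shares of the tissues were far apart (exact two-sided permutation test, p = 0.1, the smallest possible). That outcome follows from the 7.98-fold MEF2C difference beside the small one of MEF2A, so it is no separate support. The share was also chosen after the values were seen. MEF2A made up 33.2% to 36.8% and MEF2D 18.2% to 21.9% of the sum in GZ, against 10.4% to 11.8% and 3.72% to 4.64% in CP. The summed level of the 3 genes was 412 ± 28 FPKM in CP and 98.1 ± 8.4 FPKM in GZ.

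**Figure D3:**
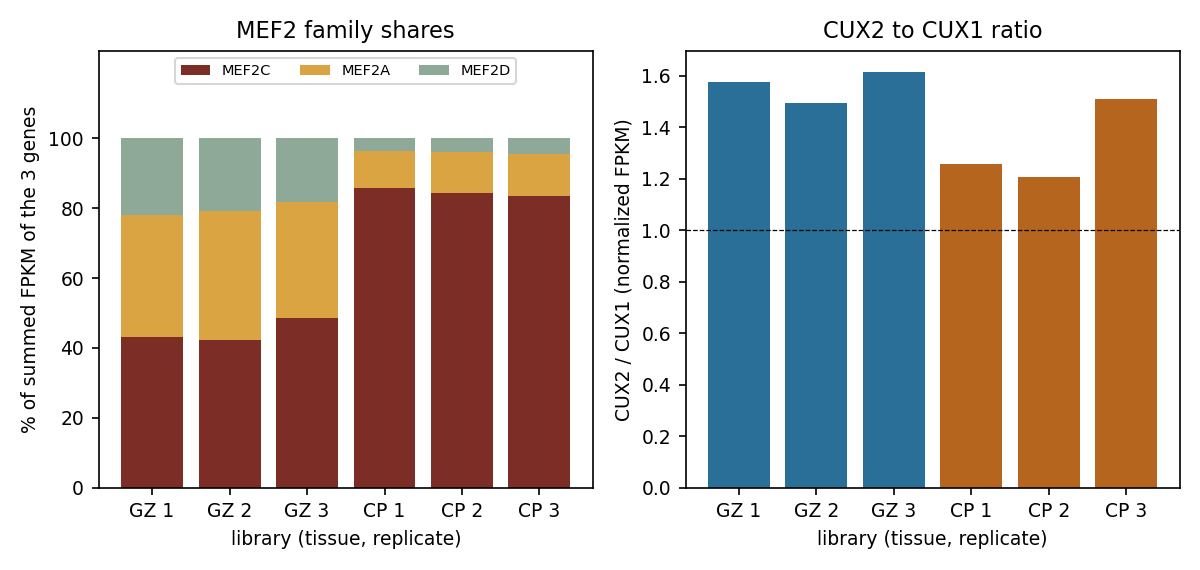
Left, percent of the summed FPKM of MEF2A, MEF2C and MEF2D from each gene, by library; right, ratio of CUX2 to CUX1 FPKM by library, with a dashed line at 1. The MEF2C share is 83.6% or more in each CP library and 48.6% or less in each GZ library, while the CUX2 ratio of CP replicate 3 (1.51) lies within the GZ range.

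Other relatives of the 5 factors were mostly low or went another way. Of 17 listed relatives 13 were measured and 5 had a mean log2 level of 0 or more, which the test required: 1 was higher in CP (MEF2A) and 2 higher in GZ. LHX6, the LIM-homeobox factor of interneurons from the medial ganglionic eminence, was 3.16-fold higher in GZ (5.79 ± 0.12 in CP and 7.45 ± 0.29 in GZ, SD, n = 3, limma adjusted p = 1.43e-04). Within a library LHX2 exceeded LHX6 by 1.35, 1.78 and 1.41 in the CP replicates and lay under it in the GZ replicates, by -1.27, -1.73 and -0.72 (log2). SATB1, which carries cut domains and a homeodomain as the CUX proteins do, was 1.48-fold higher in GZ (adjusted p = 0.014). RORA, the closest relative of RORB, was at 2.46 ± 0.08 in CP and 2.16 ± 0.01 in GZ and was not called (adjusted p = 0.104), but was with a variance model without trend (adjusted p = 0.030). The 8 relatives under the mean of 0 were LHX3, LHX8, LHX9, ISL1, LMX1A, LMX1B, ONECUT1 and ONECUT2. With no filter on low values LHX8 and ONECUT2 also passed as higher in GZ (adjusted p = 0.033 and 0.023), which made 4 of the 13 relatives higher in GZ.

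Other genes used to mark upper-layer neurons were mostly higher in CP. Of 13 listed genes 11 were measured and tested. Of the 11, 7 were higher in CP, 0 were higher in GZ and 4 did not pass. The median CP minus GZ difference was 0.82, against -0.05 over all tested genes. RASGRF2, an exchange factor for small GTPases, was at 3.43, 3.62 and 3.27 in the CP replicates and at 1.03, 0.78 and 1.62 in the GZ replicates. Its CP libraries lay far above its GZ libraries, and it was 4.92-fold higher in CP (2.30 ± 0.23 SE, limma adjusted p = 2.92e-04). The bHLH factor gene BHLHE22 was 4.64-fold, the semaphorin receptor gene PLXND1 2.18-fold and the cell adhesion gene NECTIN3 2.06-fold higher in CP. The netrin receptor gene UNC5D was at 4.72 ± 0.27 in CP and 4.34 ± 0.34 in GZ (adjusted p = 0.145), and LAMP5 at -0.09 ± 0.33 and 0.69 ± 0.52 (adjusted p = 0.085). LAMP5 reached the level required for a test only through GZ, with 0.942 FPKM in CP and 1.61 FPKM in GZ. Without GZ replicate 3, LAMP5 was called higher in GZ (adjusted p = 0.020), which that filter favours. POU3F2 and POU3F1, which did not pass either, had CP minus GZ differences of -0.29 and -0.22 (limma adjusted p = 0.402 and 0.565).

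**Figure D4:**
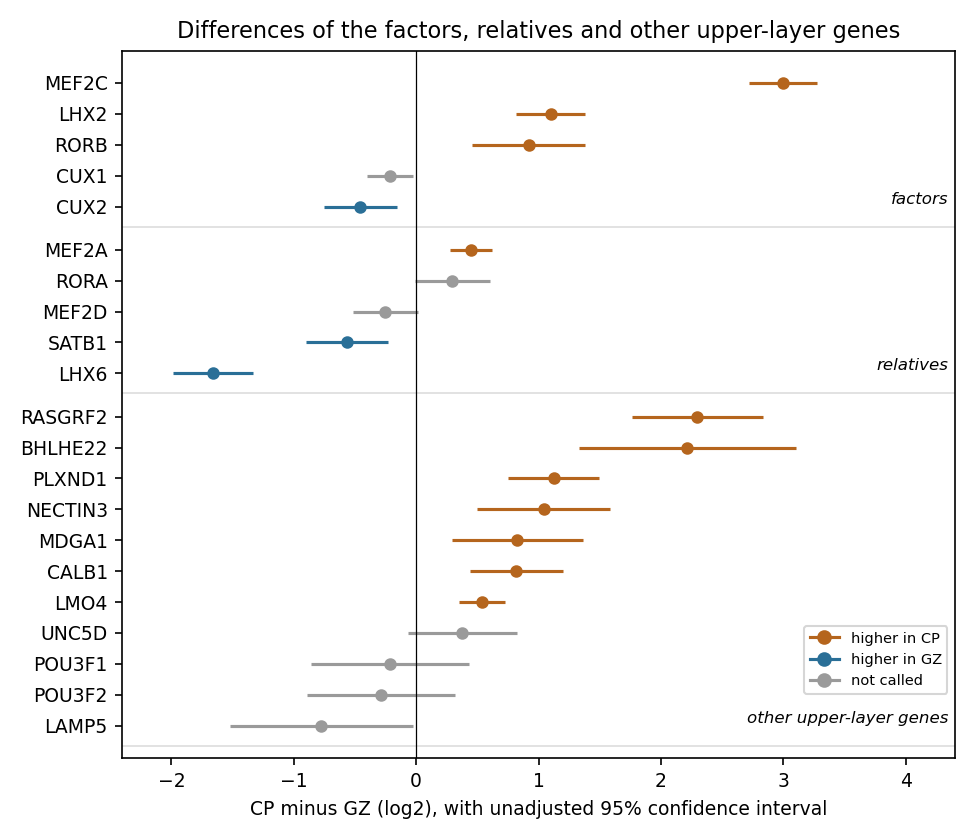
CP minus GZ log2 difference with its unadjusted 95% confidence interval for the 5 factors, their 5 tested relatives and 11 other upper-layer genes; colours mark calls at an adjusted p under 0.05. MEF2C (3.00) and RASGRF2 (2.30) lie farthest to the right, and CUX2 and LHX6 lie to the left of 0.

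LHX2 and other LIM factors act in complexes built on LDB proteins, and LMO proteins compete for the same contacts. Of 10 such cofactor genes 6 were higher in CP, 2 were higher in GZ and 2 did not pass (median 0.47). LMO3 was 2.63-fold and LDB2 2.41-fold higher in CP. LDB1, the more abundant LDB gene, was instead 1.92-fold higher in GZ (7.46 ± 0.11 in CP and 8.40 ± 0.08 in GZ, SD, n = 3, limma adjusted p = 1.45e-04). LMO1 was 2.53-fold higher in GZ (adjusted p = 0.0097), and was not called without the libraries numbered 1 (adjusted p = 0.072), where 1 gene of this list was higher in GZ.

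MEF2 proteins are switched on by calcineurin, calcium-dependent kinases and MAP kinases and held back by class IIa histone deacetylases. The list of regulators held 12 genes, among them EP300 and CABIN1 from outside these groups. Of the 12, 6 were higher in CP, 3 were higher in GZ and 3 did not pass (median 0.09). EP300 was 1.64-fold higher in GZ (limma adjusted p = 0.0023) and CABIN1 was not called (adjusted p = 0.436). Without the libraries numbered 1, 3 genes of the list were higher in CP. The 3 calcineurin genes of the list were higher in CP: the catalytic subunit genes PPP3CB and PPP3CA by 2.08-fold and 1.45-fold, and the regulatory subunit gene PPP3R1 by 1.75-fold. MAPK7, which codes for ERK5, was 1.82-fold higher in GZ (limma adjusted p = 4.67e-04). CAMK4 passed as 1.70-fold higher in CP (adjusted p = 0.016) but not without CP replicate 3 (adjusted p = 0.058) or without the libraries numbered 1 (adjusted p = 0.101). Among the deacetylase genes HDAC9 was 1.43-fold and HDAC5 1.16-fold higher in CP, while HDAC4 was 1.37-fold higher in GZ. HDAC7 was not called (adjusted p = 0.689). HDAC9 was not called without the libraries numbered 1 (adjusted p = 0.0501).

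Genes known as MEF2 targets in neurons split evenly. Of 7 tested, 3 were higher in CP, 3 were higher in GZ and 1 did not pass (median -0.30). The synaptic scaffold gene HOMER1 was 2.27-fold and the protocadherin gene PCDH10 2.12-fold higher in CP. LGI1, which codes for a secreted synaptic protein, was 2.75-fold higher in GZ (5.68 ± 0.19 in CP and 7.14 ± 0.18 in GZ, SD, n = 3), and PCDH17 was 1.90-fold higher in GZ. The activity-induced gene ARC was 1.72-fold higher in GZ (limma adjusted p = 0.019), and was not called without GZ replicate 2 (adjusted p = 0.056). BDNF lay under the level required for a test, at 0.09 ± 0.32 in CP and -0.36 ± 0.16 in GZ.

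The 3 genes with the profile most like each factor over the 6 libraries were found by the root mean square distance of mean-centred log2 values. For MEF2C they were FRMD3 (distance 0.062), the serotonin receptor gene HTR1A (0.148) and the zinc finger gene HIVEP2 (0.164). HTR1A reached the level required for a test only through CP, with 3.53 FPKM there and 0.494 FPKM in GZ. For LHX2 they were SULT4A1 (0.051), FAM3C (0.056) and SLC35F2 (0.067). For RORB they were HES4 (0.078), DLGAP3 (0.111) and COBLL1 (0.118). For CUX2 they were ANO8 (0.036), FAM171A2 (0.038) and PFAS (0.040). For CUX1 they were ADIPOR2 (0.020), ERCC6L2 (0.024) and HLTF (0.025). These genes were picked for their likeness, which fixes their differences between the tissues near those of the factor. Distances are smaller for genes that differ little between the tissues, so they are not compared between factors.

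The genes that flank the 5 factors were also examined. The nearest named protein-coding gene on each side, by the gene order of the RefSeq table for assembly T2T-MMU8v2.0, was measured in all 10 cases, and 7 of the 10 had a level high enough to test. None of the 7 was called by limma, against 45.4% of all tested genes, and 2 of them (ANXA1 and DENND1A) had an unadjusted p under 0.05. Beside MEF2C, TMEM161B was at 4.66 ± 0.14 in CP and 4.88 ± 0.08 in GZ (adjusted p = 0.103) and CETN3 at 4.87 ± 0.06 and 5.21 ± 0.49 (adjusted p = 0.229); CETN3 was called higher in GZ without GZ replicate 3 (adjusted p = 0.0010). Beside LHX2, NEK6 had a CP minus GZ difference of 0.11 (adjusted p = 0.384) and DENND1A of 0.26 (adjusted p = 0.065), and DENND1A was called higher in CP without CP replicate 2 (adjusted p = 0.036). Beside RORB, ANXA1 had a difference of 0.66 (adjusted p = 0.051) and was called higher in CP without GZ replicate 3 (adjusted p = 0.043). ANXA1 also passed with no filter, median centring, quantile normalization or a variance model without trend (adjusted p = 0.045, 0.049, 0.044 and 0.027). SH2B2 beside CUX1 and PHETA1 beside CUX2 differed by 0.04 and -0.11 (adjusted p = 0.738 and 0.482).

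Marker genes of neurons and other cell types were set beside these results. In bulk tissue, fewer cells of a type and less RNA per cell cannot be told apart. Of 14 general neuron genes 10 were higher in CP, 1 higher in GZ (TUBB3) and 3 did not pass (median 0.94), with the neurofilament gene NEFL 10.4-fold and NEUROD6, a factor of excitatory cortical neurons, 9.52-fold higher in CP. Their summed level ran from 2900 to 3178 FPKM in CP and from 1965 to 2324 FPKM in GZ. TUBB3 was called only with CP replicate 1 or GZ replicate 3 left out among the fits that left out libraries, and was not called with a replicate block or a variance model without trend (adjusted p = 0.059 and 0.064). With CP replicate 2, GZ replicate 1 or both libraries numbered 1 left out, and with the model without trend, 0 of these genes were higher in GZ. Deep-layer and subplate genes had 5 of 13 higher in CP, 1 higher in GZ and 7 not called; FEZF2, which specifies neurons that project below the cortex, was 5.53-fold higher in CP and BCL11B 3.36-fold higher in GZ. Without GZ replicate 3, 2 genes of that list were higher in GZ. LDB2 and LMO4 each stand in 2 of these lists, as does LHX6.

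Of 12 interneuron genes 9 were higher in GZ, with SST the 1 higher in CP, and 2 did not pass; their summed level was 506 to 538 FPKM in CP and 1005 to 1318 FPKM in GZ. Of 11 radial glia and intermediate progenitor genes 6 were higher in GZ and 2 in CP while 3 did not pass, with summed levels of 508 to 635 FPKM in CP and 603 to 648 FPKM in GZ. Most called genes of both lists moved the same way as CUX2. The largest difference of the progenitor list went the other way, with PROM1 3.98-fold higher in CP. Summed levels of that list overlapped between the tissues. The part of either list in the CUX2 difference was not tested. Endothelial and pericyte genes had 8 of 8 higher in CP, with summed levels of 127 to 184 FPKM in CP and 31.7 to 66.1 FPKM in GZ; FLT1, a receptor for vascular growth factor, was 4.27-fold higher in CP. None of 5 microglia genes was called by limma, with summed levels of 61.6 to 91.0 FPKM in CP and 49.0 to 76.9 FPKM in GZ; 0 of the 5 had an unadjusted p under 0.05, and without the libraries numbered 1 TYROBP was called higher in GZ (adjusted p = 0.025). No measured gene of these 4 lists was under 1 FPKM in all libraries. Measured were 12 of 15 listed interneuron genes and 11 of 15 progenitor genes. For endothelial and pericyte genes it was 8 of 10, and for microglia genes 5 of 10. Those not matched by symbol included SOX2, HES1, FABP7 and EOMES and the microglia genes AIF1, CX3CR1 and P2RY12. The part of vessel cells and microglia in the MEF2C difference was not tested.

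Of the remaining lists, astrocyte genes had 1 of 5 higher in CP, SPARCL1 (2.38-fold), or 2 with GZ replicate 2 left out. That 1 of 5 is near the 20.9% of all tested genes called higher in CP. ALDH1L1 was under 1 FPKM in all libraries. Oligodendrocyte lineage genes had 1 of 5 higher in CP (CSPG4) and 2 higher in GZ (MBP and OLIG2), or 1 in GZ without CP replicate 3. Meningeal and fibroblast genes had 0 of 6 called by limma, with unadjusted p under 0.05 for 2 genes. LUM among them was called higher in CP when CP replicate 1 (adjusted p = 0.014), GZ replicate 3 (0.029) or both libraries numbered 1 (0.042) were left out. With GZ replicate 3 left out 2 genes passed as higher in CP, and with CP replicate 3 or GZ replicate 2 left out 1 passed as higher in GZ. Erythroid genes had 2 of 3 higher in CP, ALAS2 and HBA (log2 differences 0.76 and 0.58). Of the erythroid genes 1 was called without any 1 of the CP replicates or GZ replicate 1, and 0 without both libraries numbered 1.

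**Figure D5:**
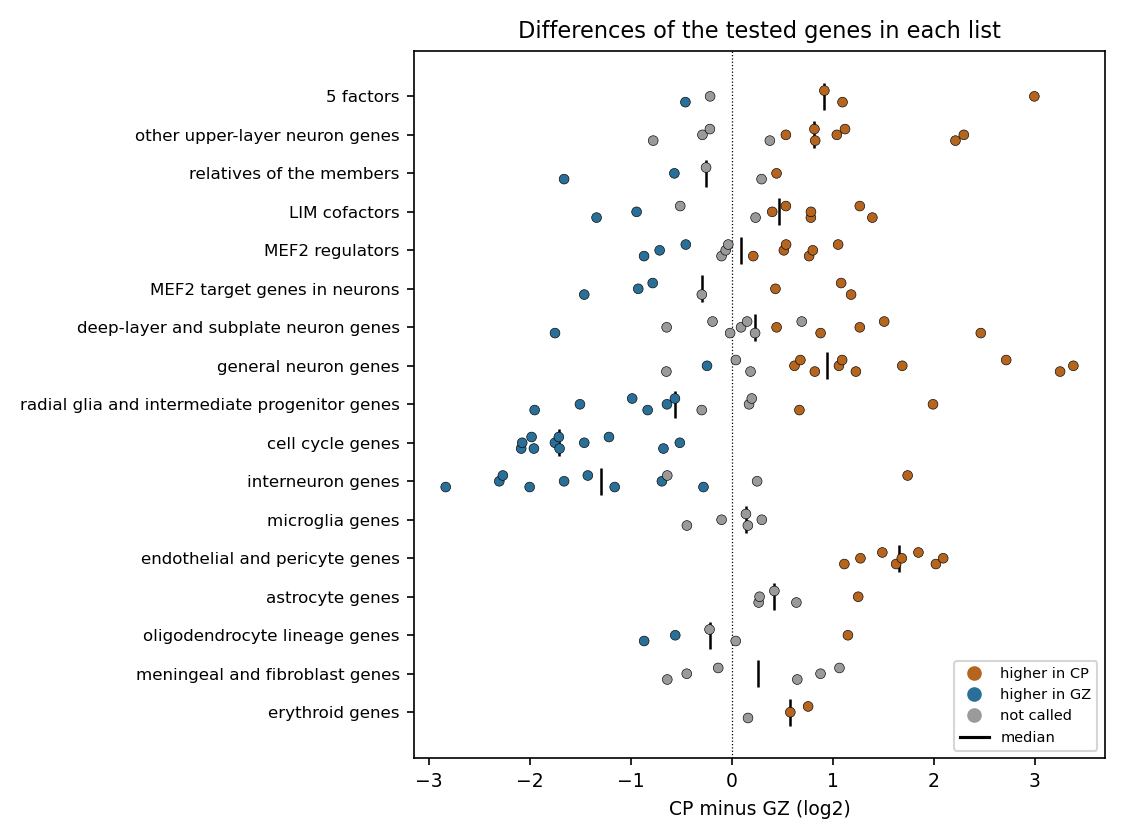
CP minus GZ log2 difference (horizontal axis) of each tested gene in the 5 factors and 16 gene lists; each point is a gene, coloured by its call, and black bars are medians. The 5 factors spread from -0.46 to 3.00, and cell cycle and interneuron genes lie mostly to the left of 0, endothelial and pericyte genes to the right.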

How the data were processed

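The deposited RNA table holds log2 FPKM after cqn normalization by the authors, per the labels; no pseudocount, counter, annotation release or strand setting is given in the sources used here, so reads of overlapping antisense genes cannot be told apart. The submitters' processing notes name STAR and SAMtools among other tools and give 2 builds (rheMac8, Mmul_8.0.1), with no role stated. Hi-C, DNase-seq and CTCF files were not used here, since no annotation of their build was used to place them at genes.

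Groups and replicate numbers came from sample titles. Symbols came from a reference table, which held 14700 of the 22345 identifiers (65.8%). Genes with a mean log2 value of at least 0 were tested in limma 3.58.1 (R 4.3.3; lmFit, eBayes with trend), CP minus GZ, without a block, with Benjamini-Hochberg adjustment over 13460 genes and a threshold of 0.05. Intervals are limma's unadjusted 95% intervals. The fit was tested on simulated data. Figures used matplotlib 3.10.9.

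The 5 genes and all lists were chosen with earlier results of these data known. Some items of the lists are not reported here and were left out of the lists' counts and medians. The naming rule took the 5 factors, all measured relatives and the 3 most alike genes per factor. From each list it picked up to 4 called genes with the largest differences (or 1 or 2 where none was called). Not all picks are named, and none of the cell cycle and interneuron lists is. UNC5D, LAMP5, POU3F1, POU3F2, further PPP3 and HDAC genes, BDNF, ARC, LMO4, ALDH1L1, TUBB3, SST and TYROBP were named after their values were seen. EP300 and CABIN1 were also named in that way. So were the flanking genes and the within-library comparisons other than CUX2 with CUX1. Alternatives were leaving out libraries, a replicate block, other variance models, median centring or quantile normalization, a pseudocount of 1 and other filters. Same-numbered libraries were not taken as pairs.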

Additional observations from a re-analysis of the deposited data

How the results depend on the processing

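Under all 15 alternatives each of the 5 factors kept the sign of its CP minus GZ difference. MEF2C ran from 2.88 to 3.13, LHX2 from 0.97 to 1.2 and RORB from 0.76 to 1.16 (log2), all called by limma (highest adjusted p 0.0019, 0.0082 and 0.028). CUX1 ran from -0.26 to -0.15 and was never called (adjusted p 0.057 to 0.167). CUX2 ran from -0.58 to -0.33 with 1 library left out, and its call was lost in 4 of those 6 fits; without both libraries numbered 1 it was -0.46 (adjusted p = 0.120). That setting left 2 libraries per tissue and gave 1716 genes higher in CP and 1647 higher in GZ. CUX2 minus CUX1 ran from -0.34 to -0.18 with 1 library left out (exact permutation p 0.1 to 0.3). With a replicate block 2817 and 3300 genes were called, MEF2C, LHX2, RORB and CUX2 were called (adjusted p = 1.40e-04, 0.0017, 0.018 and 0.0054) and CUX1 was not (0.059). The block takes same numbers as pairs, which the labels do not state. Deviations of same-numbered libraries correlated at -0.38, 0.30 and 0.35 for numbers 1, 2 and 3. CP replicates 2 and 3 correlated best with the GZ library of the same number, and their Y-linked medians matched (3.73 and 3.75, and -1.73 in both). CP replicate 1 correlated best with GZ replicate 2 (0.19), and the Y-linked medians of number 1 differed. With the block 2 astrocyte genes were called higher in CP, and 2 meningeal genes higher in CP (LUM, adjusted p = 0.036) and 1 in GZ. Of 85 other tested genes that the naming rule picked or the text names, 62 kept their sign and call throughout. POU3F1, POU3F2, HDAC5, HDAC7, EP300 and CABIN1 were not among the 85. Differences that were not called changed sign for SH2B2 (-0.035 without CP replicate 2, up to 0.083 without CP replicate 1), for PHETA1 (0.0043 and down to -0.196 without the same libraries) and for C1QC (-0.067 without both libraries numbered 1). The planned description of chromatin at the 5 genes, with its score threshold, was not run. Read depth is unknown, so precision rests on 3 libraries per tissue.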
